A study of Arabidopsis thaliana with 12 samples.

Results

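Among the transcripts measured in young Arabidopsis thaliana shoots, 100 probe sets read far lower 1 h after trans-zeatin (tZ), a cytokinin, was sprayed on than after its solvent DMSO, both in wild type and in a cytokinin signalling mutant. They were chosen by their own values. A probe set, the group of short probes that together measure a transcript, was taken when its mean on the log2(signal + 10) scale was lower by at least 1.3 on tZ arrays than on DMSO arrays in both genotypes. It also had to carry either no gene symbol or a plain locus code in the array's annotation, so organelle genes that carry symbols were left out. Of 22810 probe sets, 64 were controls, 22746 were tested and 20663 were open to the rule. The 100 members, 0.484% of these, comprise 49 that name 1 locus each and 51 that the annotation used here does not name. Because the change after tZ chose them, its size is given as a description and carries no test.

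The RNA came from aerial parts of seedlings grown on agar for 2 weeks and was hybridised to 12 ATH1 arrays from Affymetrix, with 4 groups of 3. They are wild type (Col-0) sprayed for 1 h with 20 µM tZ, wild type sprayed with 0.02% DMSO, the mutant with tZ, and the mutant with DMSO. The mutant's labels name the insertion lines SALK_098604 and SALK_054752, known as lines of ARR10 and ARR12; whether 1 plant carried both insertions is not said, and the genotype is called the mutant here. Whether arrays within a group stem from separate cultures is not stated; p-values thus reflect only how far these arrays scatter, and that scatter may be technical.

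Cytokinins are plant hormones that act through membrane-bound histidine kinases, whose signal passes by phosphotransfer proteins to type-B response regulators in the nucleus. These regulators, ARR10 and ARR12 among them, activate transcription, and the type-A response regulators are among their earliest targets and feed back on the pathway. In RNA from a whole shoot, fewer cells of a type and less RNA per cell cannot be told apart.

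The 2 sets of arrays also differed in their controls. The ratio of 5' to 3' signal of actin, which compares probe sets at opposite ends of 1 transcript, ran from 0.252 to 0.328 on the 6 tZ arrays and from 0.0409 to 0.0579 on the 6 DMSO arrays. The 5' actin probe set read 615 to 818 on tZ arrays and 141 to 185 on DMSO arrays, while the 3' one read 2393 to 2508 on tZ arrays and 3113 to 3483 on DMSO arrays. The same ratio of GAPDH ran from 0.704 to 0.837 on tZ arrays and from 0.226 to 0.294 on DMSO arrays. The cre spike-in control read 2274 to 2472 on tZ arrays and 3617 to 3891 on DMSO arrays, so it too was lower with tZ, without overlap. Treatment and array set coincide in both genotypes, so for every fall described here the spray and this division cannot be told apart. Comparisons of genotypes lie within 1 side of it, but some controls differed there too. On tZ arrays the GAPDH ratio ran from 0.704 to 0.747 in the mutant and from 0.787 to 0.837 in wild type. On DMSO arrays cre read 3617 to 3658 in the mutant and 3724 to 3891 in wild type. The actin ratio overlapped between genotypes in both treatments. The 5S ribosomal RNA control read 104 on mutant tZ replicate 1 and at most 32.5 on the other tZ arrays. The part of these differences in the genotype comparisons was not tested. As for tissue, of 14 listed photosynthesis genes of leaves 2 were measured by name, RCA at 4762 to 5211 and LHCB4.1 at 4720 to 5244 in group means. Of 8 listed root genes 4 were measured; PYK10 read 520 ± 44.1 under tZ against 837 ± 238 under DMSO in wild type, and 631 ± 124 under tZ against 1129 ± 202 under DMSO in the mutant (SD, n = 3), and the means of the other 3 lay below 11.2, the highest signal among 27 probe sets of bacterial genes, used here as absent controls. PYK10 was called lower with tZ in both genotypes (limma adjusted p = 0.012 in wild type and 0.0022 in the mutant), and its part in the members' falls was not tested.

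By its threshold the rule left out probe sets with little signal on the DMSO arrays, so the members' signal there is a description. Their median signal was 83.5 under tZ and 269 under DMSO in wild type, and 88.1 under tZ and 266 under DMSO in the mutant. All probe sets tested had a median of 34.3 under tZ and 35.4 under DMSO in wild type, and 99 of 100 members lay above that median under DMSO in each genotype. On the log2(signal + 10) scale members changed by a median of -1.52 in wild type and by -1.46 in the mutant, against -0.075 and -0.066 over all probe sets tested. Put as signals, a median of 30.9% of the DMSO mean was left under tZ in wild type (range 3.49% to 39.9%) and 32.7% in the mutant (highest 39.2%). The falls crowd near the threshold, with 48 of 100 members between -1.3 and -1.5 in wild type and 58 in the mutant, while 11 reached -2 in wild type, 7 in the mutant and 7 in both. On none of the members did the tZ and DMSO arrays of a genotype overlap, where 29.6% of all probe sets tested in wild type and 30.1% in the mutant were lower without overlap. By limma 25.4% of all probe sets were called lower with tZ in wild type and 24.9% in the mutant, and 18.2% and 17.9% were called higher. A change of -1.3 or deeper was met by 0.835% of all probe sets in wild type and 0.778% in the mutant. The rule itself used these comparisons, so nothing is read from the members' share in them.

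**Figure D1:**
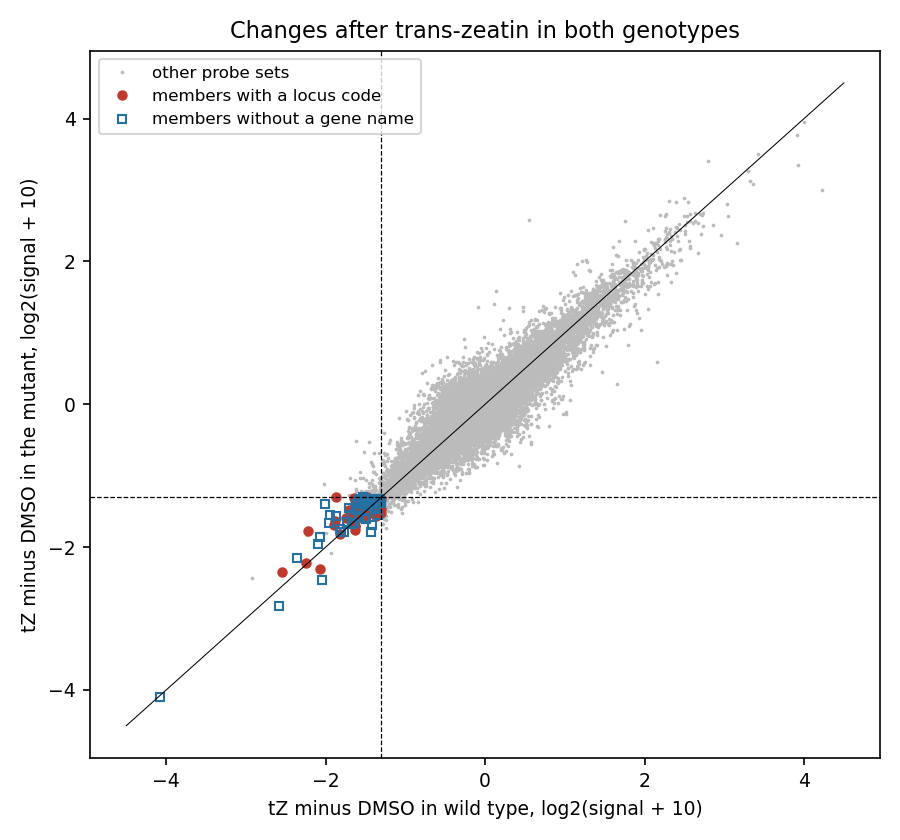
Change after tZ (tZ minus DMSO, log2(signal + 10)) in wild type on the x axis and in the mutant on the y axis, 1 point per probe set, with dashed lines at the threshold of -1.3 and a solid line of equal change. The 100 members fill the lower left corner along the line of equal change, and 1 unnamed member near -4.1 in both genotypes, at the level of absent controls under tZ in the mutant, stands apart from the rest.

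The deepest fall belonged to a probe set without a gene name, 256824_at. It read 16.3, 11.4 and 12.8 on the wild type tZ arrays, against 338, 404 and 416 on the wild type DMSO arrays. In the mutant it read 7.78, 13.4 and 11.5 on the mutant tZ arrays, against 298, 354 and 388 on the mutant DMSO arrays. The signal under tZ was thus close to or below the highest absent-control signal of 11.2 in both genotypes, and the change was -4.08 in wild type (SE 0.13). In the mutant the tZ mean of 10.9 lay below that control signal, so the fall is given as a bound: at least 28.8-fold lower with tZ, taking for each tZ array the higher of 11.2 and its own signal. The next deepest, 254315_at, also unnamed, read 27.2, 32.8 and 17.4 on the wild type tZ arrays, against 184, 209 and 211 on the wild type DMSO arrays. In the mutant it read 20.1, 14.8 and 24.0 on the mutant tZ arrays, against 166, 199 and 237 on the mutant DMSO arrays, for changes of -2.58 in wild type and -2.83 in the mutant. The probe set with the following number, 254316_at, was a member too, with changes of -2.04 in wild type and -2.46 in the mutant, as was 254317_at, which names AT4G22510 (-1.43 in wild type and -1.42 in the mutant). On 1 mutant tZ array 254316_at read 9.37, and 254317_at read 10.9 on 1 wild type and 7.53 on 1 mutant tZ array. Those readings lay below the highest absent-control signal. The annotation does not tell what the unnamed pair measures, so whether the 3 belong together is not known from these data. Over the 51 unnamed members the median change was -1.51 in wild type (up to -1.301 for the shallowest) and -1.45 in the mutant (up to -1.304), beside medians of -1.54 and -1.47 over the 49 named ones.

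Among members with a locus code, AT4G16980, annotated elsewhere as a member of the arabinogalactan protein family, proteins of the cell surface, fell deepest. It read 21.5, 13.5 and 12.1 on the wild type tZ arrays, against 137, 144 and 133 on the wild type DMSO arrays. The mutant signals were 15.1, 16.6 and 17.6 on the mutant tZ arrays, against 113, 145 and 116 on the mutant DMSO arrays. No tZ array came near a DMSO array, and the changes were -2.54 in wild type (SE 0.14) and -2.34 in the mutant (SE 0.14). The tZ signals lay close to the highest absent-control signal of 11.2. Over the alternatives run, the change ranged from -3.10 to -1.52 in wild type and from -2.84 to -1.39 in the mutant. A second, brighter probe set of this locus, described below, was higher with tZ in both genotypes.

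AT2G07741 followed, with 33.3, 32.4 and 35.9 on the wild type tZ arrays, against 167, 206 and 226 on the wild type DMSO arrays. In the mutant the values were 63.3, 33.8 and 32.6 on the mutant tZ arrays, against 188, 342 and 187 on the mutant DMSO arrays, so that 1 mutant tZ array and 1 mutant DMSO array stood above the other two of their groups. The changes were -2.25 in wild type (SE 0.23) and -2.22 in the mutant (SE 0.23). This locus lies in the stretch of chromosome 2 that is a copy of mitochondrial DNA, and it encodes a protein of the ATP synthase subunit a type. Its probe set carries the suffix that marks probes shared by several transcripts, so signal from the nuclear copy and from the mitochondrial gene cannot be told apart. Of 34 probe sets naming loci of this stretch, 13 had a group mean above the absent-control maximum, and of the 34 AT2G07741 alone was lower by at least 1.3 in wild type, with AT2G07739 next at -1.10 in wild type and -1.08 in the mutant. The tZ means of AT2G07739, 3.05 in wild type and 4.90 in the mutant, lay below that maximum. A further probe set that names AT2G07727 together with the mitochondrial gene cob, and is not among the 34, gave -1.54 in wild type and -1.64 in the mutant. In wild type the 13 had a median change of -0.20, and 4 of them had a change above 0. These figures do not describe the mutant, where the sign differed for some of the 13, such as AT2G07718 (-0.14 in wild type and 0.28 in the mutant).

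AT3G26890 read 87.6, 86.3 and 76.1 on the wild type tZ arrays, against 484, 354 and 325 on the wild type DMSO arrays. Mutant signals were 88.3, 94.8 and 86.9 on the mutant tZ arrays, against 432, 552 and 476 on the mutant DMSO arrays. Its changes were -2.07 in wild type (SE 0.13) and -2.30 in the mutant (SE 0.13), and it was among the 7 members past -2 in both genotypes. AT5G54630, a gene for a zinc finger protein, read 119.7, 110.4 and 116 on the wild type tZ arrays, against 433, 414 and 456 on the wild type DMSO arrays. The mutant gave 102, 116 and 109 on the mutant tZ arrays, against 387, 386 and 457 on the mutant DMSO arrays, for changes of -1.82 in the mutant and -1.82 in wild type. AT4G16180 changed by -1.78 in the mutant and -2.22 in wild type. Its DMSO signals were 103, 68.9 and 82.1 in the mutant against 106, 138 and 116 in wild type, a difference that was not called (limma adjusted p = 0.43). AT2G01220 had 163 ± 13.5 on wild type tZ arrays against 637 ± 84.5 on wild type DMSO arrays, and 165 ± 14.4 on mutant tZ arrays against 557 ± 23.1 on mutant DMSO arrays (SD, n = 3 each). Of others with no role given here, AT3G53670 changed by -1.61 in wild type and -1.58 in the mutant, and AT3G23160 by -1.48 in wild type and -1.49 in the mutant.

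**Figure D2:**
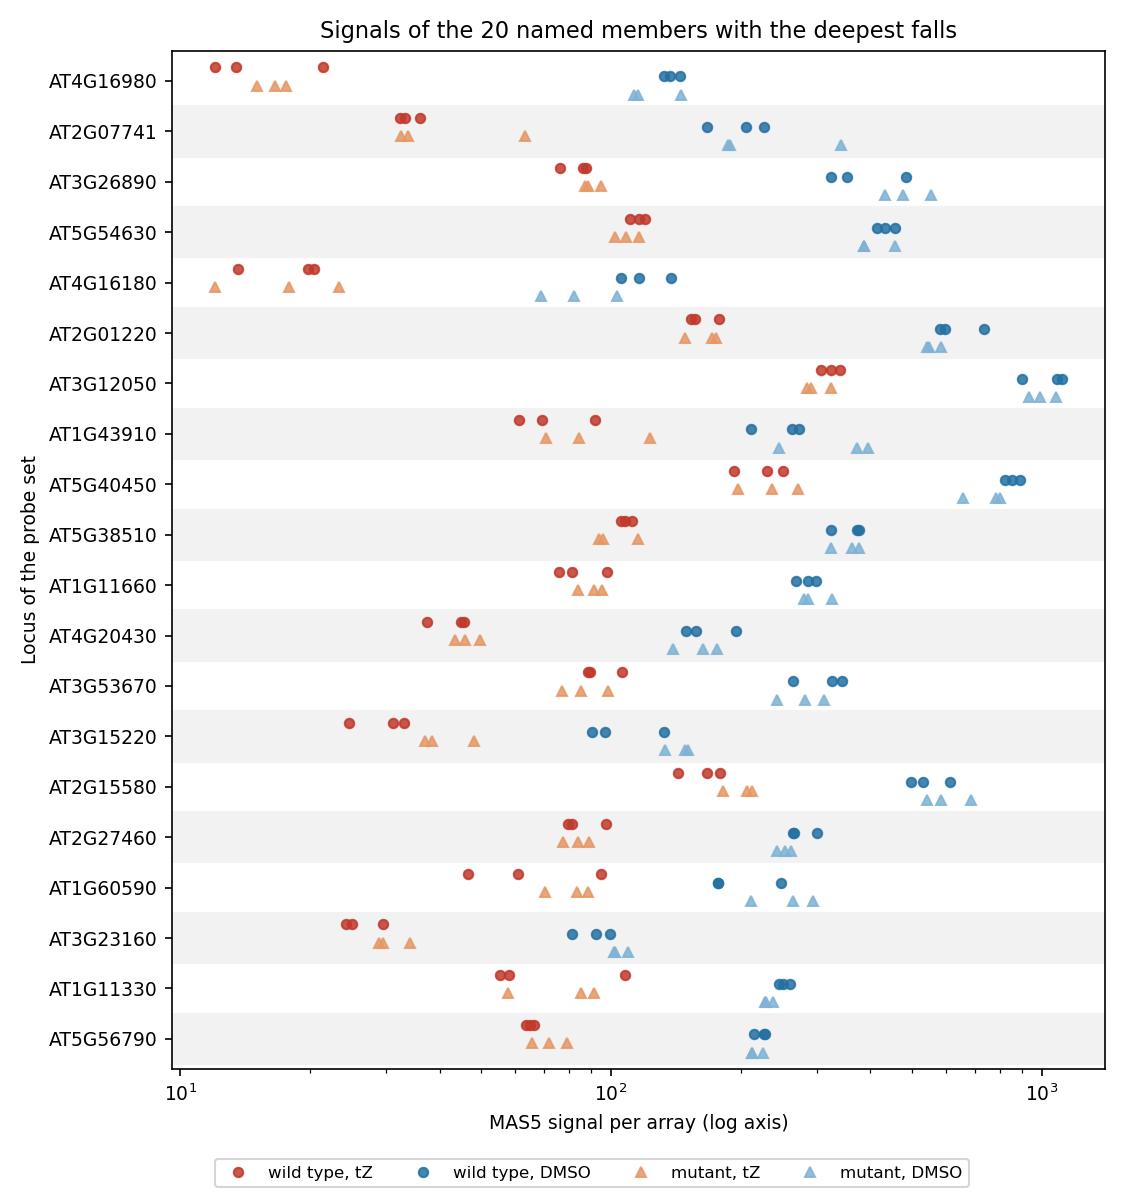
MAS5 signal on a log axis for the 20 named members with the deepest falls (by the genotype in which they fell less), 1 row per locus and 1 point per array, with wild type as circles and the mutant as triangles. In every row the tZ points lie left of the DMSO points of the same genotype. The genotypes differ by less than the treatments do, and most in AT4G16180 and AT3G15220 under DMSO.

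Protein folding and turnover were represented among the members. AT3G12050, a homologue of Aha1, which stimulates the ATPase of the chaperone Hsp90, read 325, 341 and 306 on the wild type tZ arrays, against 1083, 1116 and 899 on the wild type DMSO arrays. In the mutant it read 324, 291 and 285 on the mutant tZ arrays, against 935, 991 and 1081 on the mutant DMSO arrays, so that every tZ array lay far below every DMSO array. AT1G11660, an Hsp70-family chaperone gene, changed by -1.64 in wild type (SE 0.09) and -1.62 in the mutant (SE 0.09), and AT1G43910, an AAA-type ATPase, by -1.64 in wild type (SE 0.20) and -1.76 in the mutant (SE 0.20). Of genes for proteases, AT5G38510, a rhomboid-type protease of membranes, had 108 ± 3.17 on wild type tZ arrays against 358 ± 28.7 on wild type DMSO arrays, and 102 ± 12.0 on mutant tZ arrays against 354 ± 26.7 on mutant DMSO arrays (SD, n = 3 each). The subtilase AT4G20430 changed by -1.75 in wild type and -1.59 in the mutant. Genes that serve ubiquitin ligases included the RING protein gene AT2G15580 (-1.69 in wild type and -1.54 in the mutant), the F-box genes AT4G15475 (-1.37 in wild type and -1.38 in the mutant) and AT3G26000 (-1.37 in wild type and -1.35 in the mutant), and AT5G43560, a TRAF-domain protein that takes part in turnover of immune receptors (-1.33 in wild type and -1.41 in the mutant).

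Protein kinase genes formed another set of members. AT3G15220 read 33.0, 31.3 and 24.6 on the wild type tZ arrays, against 96.8, 133 and 90.2 on the wild type DMSO arrays. The mutant signals were 37.0, 38.3 and 48.1 on the mutant tZ arrays, against 151, 149 and 133 on the mutant DMSO arrays. They were higher than in wild type, but the difference was not called under tZ or under DMSO (limma adjusted p = 0.72 and 0.37). The receptor-like kinase genes AT1G11330 and AT1G07650 changed by -1.70 in wild type and -1.48 in the mutant, and by -1.46 in wild type and -1.41 in the mutant. On the tZ arrays of AT1G11330 the spread was wide, at 57.8, 85.1 and 91.2 in the mutant and 55.2, 108 and 57.9 in wild type. The kinase gene AT5G56790 was tight by contrast, at 66.2, 63.6 and 64.7 on the wild type tZ arrays, against 215, 227 and 228 on the wild type DMSO arrays. AT2G17530 encodes a kinase of SR splicing factors and changed by -1.32 in wild type and -1.37 in the mutant. AT2G20050, whose protein joins a phosphatase and a kinase domain, changed by -1.497 in wild type and -1.36 in the mutant.

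Several members act in membrane traffic or at the cell wall. AT5G40450, known as RBB1, a long protein that shapes vacuolar membranes, read 193, 231 and 251 on the wild type tZ arrays, against 851, 890.3 and 823 on the wild type DMSO arrays. The mutant read 272, 236 and 197 on the mutant tZ arrays, against 658, 782 and 801 on the mutant DMSO arrays, for changes of -1.89 in wild type (SE 0.12) and -1.63 in the mutant (SE 0.12). AT2G27460, a Sec23-type gene of the coat of vesicles leaving the endoplasmic reticulum, changed by -1.58 in wild type and -1.49 in the mutant, and AT1G48090, of the VPS13 family of lipid transfer proteins, by -1.38 in wild type and -1.501 in the mutant. At the wall, the polygalacturonase-like genes AT1G60590 and AT4G33440 changed by -1.48 in wild type and -1.55 in the mutant, and by -1.48 in wild type and -1.40 in the mutant. AT1G60590 had the more uneven arrays, at 94.8, 46.5 and 61.0 on the wild type tZ arrays, against 177, 178 and 248 on the wild type DMSO arrays. AT2G41770, a STELLO gene of the Golgi that serves assembly of cellulose synthase, had 106 ± 1.98 on wild type tZ arrays against 301 ± 28.6 on wild type DMSO arrays, and 99.6 ± 3.91 on mutant tZ arrays against 292 ± 18.7 on mutant DMSO arrays (SD, n = 3 each).

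Genes of metabolism and of metabolite transport were also present. AT5G65750, an E1 subunit of the mitochondrial 2-oxoglutarate dehydrogenase, read 52.1, 52.2 and 64.4 on the wild type tZ arrays, against 158, 183 and 208 on the wild type DMSO arrays. The mutant gave 59.6, 68.8 and 59.1 on the mutant tZ arrays, against 182, 184 and 199 on the mutant DMSO arrays, and the changes were -1.54 in wild type (SE 0.11) and -1.45 in the mutant (SE 0.11). AT1G70820, a phosphoglucomutase-like gene, had 218 ± 12.9 on wild type tZ arrays against 668 ± 46.8 on wild type DMSO arrays, and 206 ± 32.2 on mutant tZ arrays against 577 ± 35.8 on mutant DMSO arrays (SD, n = 3 each). AT1G62660, a vacuolar invertase that splits sucrose, had 112 ± 3.22 on wild type tZ arrays against 309 ± 36.8 on wild type DMSO arrays, and 116 ± 1.95 on mutant tZ arrays against 332 ± 13.7 on mutant DMSO arrays. AT1G08230, the GABA transporter GAT1, was less even, at 37.7, 19.5 and 22.6 on the wild type tZ arrays, against 62.2, 92.9 and 84.1 on the wild type DMSO arrays, and changed by -1.31 in wild type and -1.32 in the mutant. These role groups were formed after the members were known, from general knowledge of the loci, and carry no test.

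Close relatives and partners of some members were measured by name, 14 of 21 looked up, and are given beside members that were themselves chosen for the depth of their fall. AT3G55410, the other E1 gene of 2-oxoglutarate dehydrogenase, was called lower in both genotypes (limma adjusted p = 3.7e-04 and 1.8e-04), with changes of -0.46 in wild type and -0.50 in the mutant. Of the E2 subunit genes of the complex, AT5G55070 gave -0.01 in wild type and -0.23 in the mutant (adjusted p = 0.91 and 0.0066), and AT4G26910 gave 0.07 in wild type and 0.06 in the mutant (adjusted p = 0.46 and 0.52). The other STELLO gene, AT3G57420, gave 0.10 in wild type and 0.03 in the mutant (adjusted p = 0.40 and 0.82), beside -1.42 in wild type and -1.46 in the mutant for AT2G41770. AT1G04300, the relative of the TRAF-domain gene AT5G43560, was called lower with -0.67 in wild type and -0.74 in the mutant (adjusted p = 2.8e-06 and 1.1e-06). The 5 other Sec23 genes measured by name went both ways. AT2G21630 was called lower, with -1.07 in wild type and -0.98 in the mutant, AT3G23660 too, with -0.69 in wild type and -0.65 in the mutant, and AT4G14160 was called higher, with 0.62 in wild type and 0.59 in the mutant (the largest of their 6 adjusted p was 1.9e-05). AT4G01810 was called lower in the mutant alone and AT1G05520 in neither genotype. Of 2 kinases of SR proteins related to AT2G17530, AT4G35500 was called higher in wild type (0.51, adjusted p = 0.016) and not called in the mutant (0.13, adjusted p = 0.57), and AT5G22840 was called in neither. Of 2 subtilases related to AT4G20430, AT1G30600 was called lower with -0.26 in wild type and -0.48 in the mutant (adjusted p = 0.0498 and 0.0012), and AT5G44530 was called in neither.

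For 5 members the array holds a second probe set naming the same locus, which the rule did not choose, and the paired readings differed. The second probe set of AT4G16980 read 2694, 2627 and 2530.1 on the wild type tZ arrays, against 1447, 1404 and 1314 on the wild type DMSO arrays. In the mutant it read 2352, 2382 and 2564 on the mutant tZ arrays, against 1189, 1406 and 1246 on the mutant DMSO arrays. It was therefore higher with tZ, without overlap and in both genotypes, by 0.91 in wild type (SE 0.07) and 0.92 in the mutant (SE 0.07), while the member probe set was lower by far. AT2G01220 showed the same contrast, with a second probe set at 84.4, 86.8 and 81.3 on the wild type tZ arrays, against 65.3, 45.9 and 50.4 on the wild type DMSO arrays. The mutant values were 79.7, 102 and 73.0 on the mutant tZ arrays, against 49.999, 60.5 and 38.9 on the mutant DMSO arrays, and its changes were 0.57 in wild type (SE 0.15) and 0.67 in the mutant (SE 0.15), beside -1.90 in wild type and -1.70 in the mutant for the member. In these 2 genes a statement that the transcript fell would hold for 1 probe set and not for the other.

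The second probe sets of the other 3 genes were lower with tZ, though by less than the member. That of AT4G16180 changed by -0.81 in wild type (SE 0.12) and -0.86 in the mutant (SE 0.12). AT3G53670 gave -0.92 in wild type and -0.77 in the mutant on its second probe set, beside -1.61 in wild type and -1.58 in the mutant on the member, and that second probe set averaged 9.98 on wild type tZ arrays, below the absent-control maximum. AT2G20050 gave -0.66 and -0.80. Over the array, 145 loci had more than 1 named probe set, and the median absolute difference in change between 2 probe sets of a locus came to 0.40 for wild type and 0.45 for the mutant. Of 158 pairs, 10, or 6.33%, differed by over 1.3 in wild type, and both probe sets were called in 46 pairs, of which 14 went in opposite directions. The actin controls did the same on these arrays, higher at the 5' end and lower at the 3' end with tZ. Where along its transcript each probe set lies is not in the files, so the part of this in the members' falls was not tested.

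**Figure D3:**
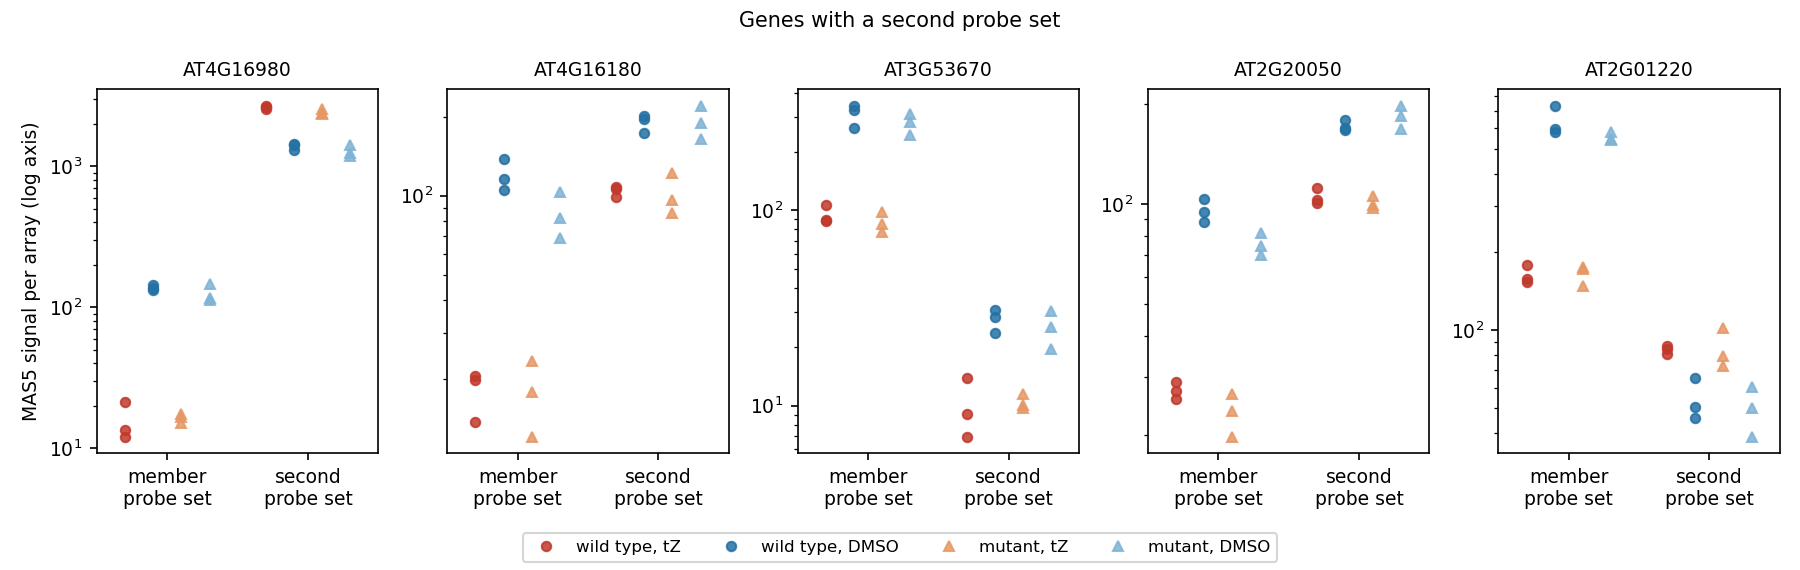
MAS5 signals on a log axis for the 5 genes with a second probe set, 1 panel per gene, with the member probe set on the left and the second on the right and 1 point per array (wild type circles, mutant triangles, tZ in warm and DMSO in cool colours). Heights compare arrays within a probe set and not the 2 probe sets. In AT4G16980 and AT2G01220 the tZ points of the second probe set lie above its DMSO points, and in the other 3 they lie below.

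The named members tended to come from long genes. RefSeq gives a gene span for all 49 named members and for none of the 51 unnamed ones, so a statement on length over all 100 is void and what follows is for the named ones. Their median span, introns included, was 3058 bp, against 2090 bp over the 11933 named probe sets open to the rule, and 39 of 49 exceeded that median. AT1G48090, the VPS13-family gene, was the longest at 26499 bp. AT2G25730 and AT5G40450 spanned 16689 and 11239 bp, and the shortest, AT5G49640, 680 bp. With the named probe sets divided into 5 groups of equal number by span, members made up 0.922% of the longest group, 0.546% of the next, 0.251% of the middle one and 0.168% of each of the 2 shortest.

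Over all 11933 named probe sets the median change after tZ was -0.023 for the shortest genes and -0.20 for the longest in wild type, and 0.0029 and -0.19 in the mutant. Span and change had a Spearman's rho of -0.21 in wild type and -0.24 in the mutant (n = 11933), which describes genes read on the same arrays and is no test over replicates. Probe sets of the shortest genes gave less signal, with a median of 5.50 under DMSO in wild type against 40.3 for those of the longest. The groups were therefore formed again over the 4251 named probe sets, 47 of the 49 named members among them, whose mean over all 12 arrays was over 50, a limit chosen after the values were seen. Members made up 2.36% of the longest group there, 1.41% of the next and between 0.351% and 0.708% of the other 3. The median change was 0.33 in the shortest group and -0.38 in the longest in wild type, and 0.36 and -0.40 in the mutant. The same values chose the members, so their shares are a description. The 5' to 3' ratios given above divide the arrays in the same way as the treatment, and their part in this gradient was not tested.

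**Figure D4:**
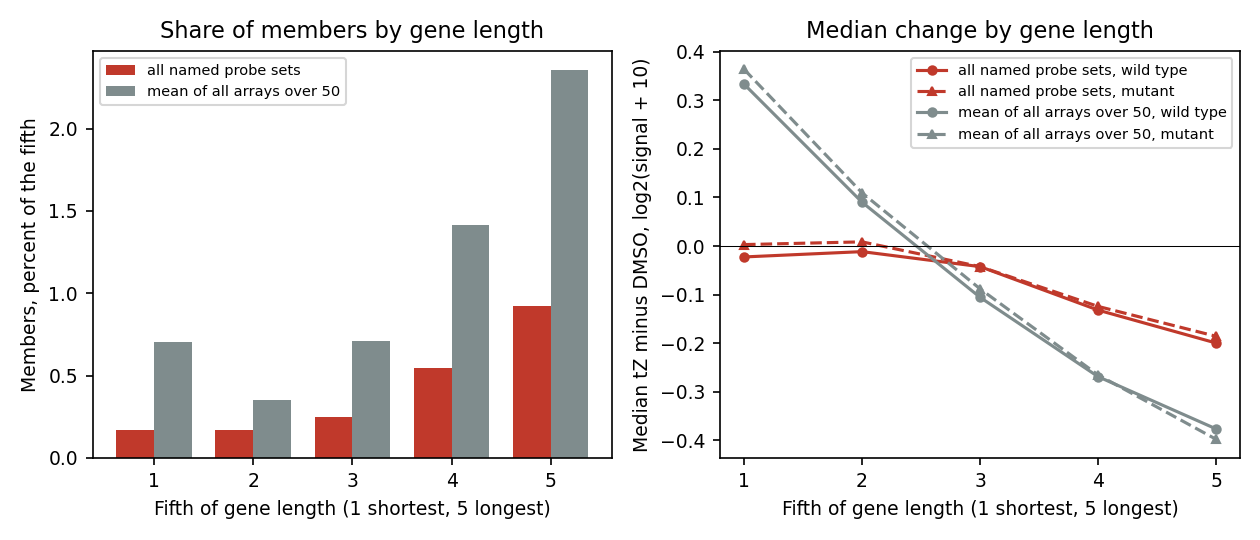
Left, members as percent of the named probe sets in each of 5 groups of gene span; right, median change after tZ in the same groups (log2(signal + 10)), for wild type (circles, solid lines) and the mutant (triangles, dashed lines), over all named probe sets and over those whose mean over all arrays was over 50. The share of members is highest and the median change lowest in the group of the longest genes.

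The named members were spread over the genome. They made up 0.419%, 0.457%, 0.409%, 0.464% and 0.334% of the named probe sets of chromosomes 1 to 5, in that order. No named members were neighbours, and the closest, AT1G11330 and AT1G11660, were 47 genes apart in the RefSeq order.

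The genotypes were also compared within each treatment. The rule did not use these differences directly, but by asking for a fall in both genotypes it left out probe sets that kept their signal under tZ in 1 of them, which narrows the differences that members can show. Within the tZ arrays, the mutant differed from wild type on 0 of 100 members by limma (adjusted p under 0.05, over all 22746 probe sets), where 0.0352% of all probe sets were called. At an unadjusted p under 0.05 there were 8 members, 7 higher and 1 lower in the mutant, against 5.56% of all probe sets. The members' median difference, mutant minus wild type, was 0.040, with a range of -0.33 to 0.44, and the median over all probe sets was -0.0021. For 95 of 100 members the difference was smaller than 0.3 in size, with a median SE of 0.105. The smallest adjusted p, 0.40, was that of the unnamed 267596_s_at, which read 162, 155 and 140.2 in the mutant and 125, 108 and 116 in wild type under tZ. AT3G26000, an F-box gene, was next among named members, at 105, 107 and 100.2 in the mutant and 90.5, 89.3 and 85.5 in wild type (difference 0.21, adjusted p = 0.60). These arrays did not overlap, but how often that holds between genotypes over all probe sets was not counted. The unnamed 260345_at had the third smallest p, with a difference of 0.26 (adjusted p = 0.72).

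Under DMSO the count was likewise 0 of 100 by limma, where 0.0132% of all probe sets were called. There were 12 members at an unadjusted p under 0.05, 5 higher and 7 lower in the mutant, against 9.5% of all probe sets. The median difference was -0.0031, with a range of -0.46 to 0.42, against -0.0086 over all probe sets. The smallest adjusted p among members was 0.22, for AT3G47490, at 400.2, 402 and 433 in the mutant and 357, 313 and 353 in wild type (difference 0.27). Next came the unnamed 254573_at and 266748_at, with differences of -0.32 (adjusted p = 0.27) and -0.38 (adjusted p = 0.36). AT3G15220, the kinase gene, differed by 0.42 (adjusted p = 0.37) and AT4G16180 by -0.46 (adjusted p = 0.43). In neither treatment did the share of members at an unadjusted p under 0.05 stand far from that of all probe sets. A difference that misses the threshold does not show that the genotypes are alike.

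**Figure D5:**
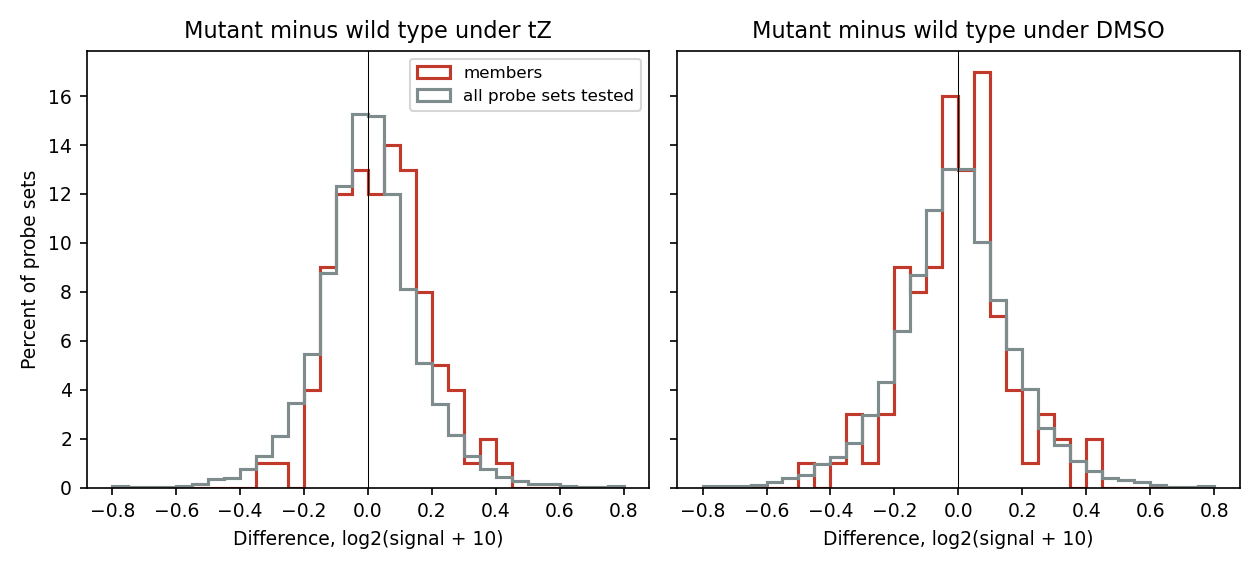
Distribution of mutant minus wild type differences (log2(signal + 10)) under tZ (left) and under DMSO (right), as percent of the 100 members and of all 22746 probe sets tested, with values beyond the axis placed in the outermost steps. Both distributions centre near 0 in each treatment.

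How alike the falls were in the 2 genotypes is in part fixed by the rule, which asked for depth in both, and is given as a description. The change in the mutant minus that in wild type had a median of 0.025 over members, against 0.0049 over all probe sets, and 88 of 100 members lay within 0.25 of equality. The fall was shallower in the mutant by at least 0.25 for 9 members and deeper for 3. The largest gap was that of the unnamed 264339_at, which read 87.7, 119 and 145 on the mutant tZ arrays, against 305, 347 and 309 on the mutant DMSO arrays. In wild type it read 65.7, 93.6 and 90.1 on the wild type tZ arrays, against 431, 337 and 319 on the wild type DMSO arrays, for changes of -1.40 in the mutant and -2.002 in wild type. AT1G29270 changed by -1.303 in the mutant and -1.87 in wild type, and AT4G16180 was the third, with the values given above. On the other side 254316_at (a difference of -0.42), the unnamed 265452_at (-0.36) and 259545_at (-0.27) fell more in the mutant. These differences were not tested.

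The edge of the set is narrow. Just inside lay AT4G37380, a pentatricopeptide repeat gene of organelle RNA editing (-1.48 in wild type and -1.304 in the mutant), AT1G29270, and AT3G61700 (-1.301 in wild type and -1.47 in the mutant). Just outside lay AT3G18930 (-1.305 in wild type and -1.299 in the mutant), AT1G11360 (-1.36 and -1.29) and AT1G50380 (-1.28 and -1.35). A further 63 eligible probe sets passed in wild type only and 53 in the mutant only. AT1G23390, a Kelch-repeat F-box gene whose protein targets chalcone synthase and the only 1 of 5 listed Kelch genes measured by name, was of the first kind. It averaged 108 ± 10.6 under tZ against 467 ± 24.7 under DMSO in wild type, and 163 ± 59.7 under tZ against 353 ± 43.7 under DMSO in the mutant (SD, n = 3), and was called lower in both (limma adjusted p = 8.4e-07 and 2.1e-04). Whether the response differed between genotypes was not tested.

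Signal size limits the dimmest member. AT5G49640 read 5.72, 0.285 and 3.49 on the wild type tZ arrays, against 29.3, 31.9 and 30.2 on the wild type DMSO arrays. In the mutant it read 5.31, 5.29 and 2.39 on the mutant tZ arrays, against 28.5, 27.8 and 20.2 on the mutant DMSO arrays, so all 6 tZ arrays lay within the range of absent controls and its fall is known only as a bound, at least 2.73-fold lower in wild type and 2.26-fold in the mutant. It is the 1 member whose tZ mean was below the absent-control maximum in wild type, and with 256824_at 1 of 2 in the mutant.

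A set of 14 other probe sets passed both thresholds but was left out for its symbol. They include the plastid genes ndhG, psbB, psbT, psbN and ycf4, and 3 whose probes name several genes, 1 of them the mitochondrial gene cob. The remaining 6 were nuclear: SIZ1, a SUMO ligase gene (-1.40 in wild type and -1.48 in the mutant), ATSPS4F, a sucrose phosphate synthase (-1.41 and -1.74), FUG1, a plastid translation initiation factor (-1.37 and -1.52), SWEETIE (-1.53 and -1.38), VPS2.1 of the ESCRT machinery (-1.43 and -1.41) and FIP2 (-1.3005 and -1.37).

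Known pathways were thinly covered by the probe sets with a name. Of 121 genes in 10 lists, for cytokinin response and breakdown, auxin response, the clock, darkness and starvation, touch, arabinogalactan proteins, Kelch F-box proteins, leaf and root, 23 were measured by name and 1, AT4G16980, was a named member. The annotation leaves 8730 of the 20663 probe sets open to the rule without a name, 51 members among them. Listed genes not found by name may therefore be on the array and among the members. Below, measured means measured by name. Of the 10 type-A regulators listed 2 were measured by name. With tZ, 2 were called higher in wild type and 1 in the mutant. Of 4 measured of 16 darkness and starvation genes, 1 was called higher and 2 lower in wild type, and 2 higher and 1 lower in the mutant. AT2G05540, a gene for a glycine-rich protein in that list, passed the threshold of -1.3 in wild type only, with 31.6 ± 7.41 under tZ against 99.4 ± 20.8 under DMSO in wild type, and 48.1 ± 9.75 under tZ against 84.4 ± 26.8 under DMSO in the mutant (SD, n = 3). Of 5 measured auxin genes of 17 listed, 0 were called higher and 1 lower in each genotype by limma, and the gene called was not the same. It was IAA29 in wild type (limma adjusted p = 0.0055) and IAA30 in the mutant (limma adjusted p = 0.0020). Their tZ means there, 7.04 and 10.4, lay below the absent-control maximum. GI, the only 1 of 17 listed clock genes measured by name, was called lower in wild type and not in the mutant, a difference that was not tested.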

How the data were processed

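RNA of 12 ATH1 arrays in 4 groups was analysed. The deposited unit is a linear intensity, the MAS5 signal, as named in the submitters' processing notes, without a version. Each deposited array had a 2% trimmed mean of 100 (rounded), so levels are relative within an array. Genes were named from GEO's platform annotation, and 48 of the 49 named members matched RefSeq (TAIR10.1) by gene identifier and 1 by locus code. No sequences were used here, and no genome coordinates are printed.

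Signals were analysed as log2(signal + 10) in R 4.3.3 by limma 3.58.1, fitting group means with a variance trend, and Benjamini-Hochberg adjustment over 22746 probe sets at 0.05, two-sided. On this scale the fold of a dim probe set is understated. SD are over 3 arrays and SE come from the fit. The fit was tested on simulated data, with the changed probe sets drawn from the brighter ones. It called 53% of genotype differences of 0.5 log2 under tZ and 55% under DMSO, and 94% and 96% of differences of 1. Every simulated group started from the wild type DMSO means, without a change after tZ. The shares given for tZ thus do not cover the members' lower signals on tZ arrays. Detection calls were not used, and the number of arrays limits the precision.

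The members and lists were chosen with earlier results of these data known. Members described in full were the 20 named ones with the deepest falls, list members, the smallest p and largest differences between genotypes, those at the threshold, and the deepest unnamed ones; the role groups with their other members, and the related genes of members, were chosen after the members were known. Alternatives were other pseudocounts, normalizations, filters, thresholds, a replicate block, a fit with no variance trend, a fit of only the pair of groups compared, and leaving out each array. Figures were made in matplotlib 3.10.9.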

Additional observations from a re-analysis of the deposited data

How the results depend on the processing

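Which probe sets belong depends on the scale and the threshold. The rule gave 242 members with a pseudocount of 1, including all 100, 25 with a pseudocount of 50, all among the 100, 477 at a threshold of -1 and 24 at -1.6. With quantile normalization it gave 87 (82 shared), with a common median 84, and 99 without the dimmest 40% of probe sets. With 1 array left out it gave 95 to 102 members, and 66 of the 100 passed in all 12 such fits. For the fixed 100, the median change in wild type was -1.68 with a pseudocount of 1 and -1.23 with a pseudocount of 50, and in the mutant -1.59 and -1.20; with 1 array left out it ranged from -1.56 to -1.51 in wild type and from -1.5001 to -1.45 in the mutant. The median difference between genotypes under DMSO, -0.0031, lay between -0.025 and 0.028 with 1 array left out. Of 680 values of the 20 deepest named members under alternatives, 0 changed sign and 39 moved by more than the spread between arrays. Many of them could not move, since a value does not use the arrays of the other genotype or the dimmest probe sets. These members were also picked for deep falls, so the lack of a sign change is no test. The count of members called between genotypes by limma stayed 0 under tZ and under DMSO in every alternative run, and the replicate block left it at 0 as well. Every group holds each replicate number, so that block cannot alter the median changes of -1.52 in wild type and -1.46 in the mutant. Arrays with the same replicate number shared little variation: their deviations correlated at -0.073 to 0.057 over 12 pairs. That cannot show whether they were handled together. Signal over background limits AT5G49640 and 256824_at, whose falls reached the level of absent controls.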
